A study of Rattus norvegicus with 5 samples.

Results

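The genes described here build, bind or cut the extracellular matrix: collagens, laminins, small proteoglycans, glycoproteins, the matrix of nervous tissue, matrix metalloproteinases and their inhibitors. They were picked out by their symbols, from the probe sets annotated with a single gene whose name begins with Col and a digit, Lama, Lamb, Lamc, Timp, Mmp or Adamts, or is 1 of a fixed set of other matrix genes such as Dcn, Fn1, Sparc, Ncan and Tnc. The rule found 83 of the 8799 probe sets of the array, for 55 of 4736 genes, and no Adamts probe set was among them. Each of 5 samples of total RNA from rat hippocampus, all labelled P5, was measured on 1 single-colour oligonucleotide array. By the labels, 2 samples came from the control diet, 2 were exposed to alcohol before birth (fetal alcohol) and 1 came from an isocaloric diet. Strain, sex, dose, the timing of exposure, and whether a sample was 1 animal or a pool were not given in the sources used here. All p-values therefore measure only the spread between these samples, which may be technical.

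Fibrillar collagens (types I, III and V) are wound into cross-banded fibrils that give skin, tendon and the meninges their strength. Small leucine-rich proteoglycans such as decorin and biglycan coat these fibrils and regulate their width. In the brain such fibrils lie mainly in the meninges and around large vessels, and the tissue between neurons holds little collagen. There the matrix is built on hyaluronan, the lectican proteoglycans (neurocan, brevican, versican, aggrecan) and tenascins, made largely by glia and neurons. Basement membranes, sheets of type IV collagen and laminin, lie around vessels and under the pia.

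The promoters of 4 genes are shown first because they set the fibrillar, neural and protease genes of this account side by side: Col1a2, a chain of type I collagen; Ncan, the lectican neurocan; and Mmp3 and Mmp11, proteases whose promoters held different motifs. Each runs from 250 bases before to 50 bases after the annotated start, from RefSeq on the GRCr8 build, 5′ to 3′ along the gene. Capitals mark matches on either strand. The letters searched were CCAAT for the CCAAT box, then TATAAA for the TATA box, next GGGCGG for the GC box, and finally TGAGTCA for the site of the transcription factor AP-1. No match overlapped another in these 4 sequences. Col1a2 lies at chr4:33518307-33518606, Ncan at chr16:19335657-19335956, Mmp3 at chr8:12925031-12925330 and Mmp11 at chr20:12730034-12730333, all on the plus strand.
Col1a2: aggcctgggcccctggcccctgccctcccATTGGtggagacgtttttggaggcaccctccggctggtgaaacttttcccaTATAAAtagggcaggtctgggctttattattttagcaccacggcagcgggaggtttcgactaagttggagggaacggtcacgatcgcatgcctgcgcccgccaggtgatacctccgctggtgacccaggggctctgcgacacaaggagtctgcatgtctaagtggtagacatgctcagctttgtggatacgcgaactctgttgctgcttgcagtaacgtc
Ncan: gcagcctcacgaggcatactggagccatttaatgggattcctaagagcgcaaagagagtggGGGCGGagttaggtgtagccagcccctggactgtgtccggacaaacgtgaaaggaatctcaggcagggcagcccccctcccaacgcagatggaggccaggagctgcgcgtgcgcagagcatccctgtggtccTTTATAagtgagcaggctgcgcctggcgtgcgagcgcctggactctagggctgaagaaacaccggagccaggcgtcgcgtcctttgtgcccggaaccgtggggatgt
Mmp3: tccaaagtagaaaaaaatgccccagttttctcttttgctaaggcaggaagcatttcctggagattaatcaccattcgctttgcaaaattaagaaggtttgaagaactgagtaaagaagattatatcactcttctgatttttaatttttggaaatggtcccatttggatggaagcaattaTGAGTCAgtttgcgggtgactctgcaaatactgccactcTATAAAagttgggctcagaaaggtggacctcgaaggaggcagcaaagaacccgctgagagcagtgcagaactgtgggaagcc
Mmp11: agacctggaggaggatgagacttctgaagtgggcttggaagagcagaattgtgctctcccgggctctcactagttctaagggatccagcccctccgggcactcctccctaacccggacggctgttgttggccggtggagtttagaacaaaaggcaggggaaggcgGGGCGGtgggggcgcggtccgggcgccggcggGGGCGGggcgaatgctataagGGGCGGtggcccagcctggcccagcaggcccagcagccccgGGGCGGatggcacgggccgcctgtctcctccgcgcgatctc
In Col1a2 the CCAAT match, on the minus strand, began 221 bases and the TATAAA match 170 bases before the annotated start. Ncan held a GGGCGG match 189 bases and a minus-strand TATAAA match 57 bases before its start. Mmp3 held TGAGTCA 71 bases and TATAAA 32 bases before the start, and Mmp11 held 4 GGGCGG matches and neither of those motifs. RefSeq promoters were matched for 41 of the 55 member genes, with 42 promoters. Col1a1, Col3a1, Mmp2, Mmp9, Mmp14 and Mmp16 were among the genes without a match. CCAAT was in 13 of the 42 and in 37.5% of all 33469 promoters of the same 300 bases, TATAAA in 11 against 14.2%, GGGCGG in 22 against 33.1%, and TGAGTCA in 6 against 4.63%. Of 8 Mmp promoters, 5 held TGAGTCA and each of these 5 also held TATAAA. Of these 5 genes, 4 (Mmp3, Mmp10, Mmp12 and Mmp13) were too dim on these arrays to be tested and 1, Mmp7, was tested. Mmp8, with TATAAA but no TGAGTCA, was too dim as well, and in all 19 of the 55 member genes were. Whether these motifs and intensity were linked was not tested. A match to a few letters is a description of the sequence, not a site bound in these samples.

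Values are deposited intensities in arbitrary units, 1 per probe set and array. Differences are on the log2(intensity + 10.605) scale, which understates the change of dim probe sets. A probe set was tested where its mean log2 value reached the 40th percentile. That left 57 member probe sets for 36 genes and 5244 probe sets in all. Intensities of different probe sets are not compared, since each probe set has its own response. Array medians ran from 49.04 to 55.74. The 2 control diet arrays were the most alike pair (SD of log2 differences 0.34) and the 2 fetal alcohol arrays the least alike (0.51). Of 10 listed genes of the developing hippocampus, 5 had a probe set, and of these Camk2a was too dim to be tested. The other 4 (Grik4, Lhx2, Neurod1, Neurod2) passed the filter. With no other tissue measured, these 4 genes cannot verify the labelled tissue. They did not vary together: Neurod2 read 185 and 150.4 (control diet), 83.8 and 110.1 (fetal alcohol) and 88.0 (isocaloric), a difference of -0.73, and Neurod1 gave -0.63, while Lhx2 and Grik4 had positive differences of 0.26 and 0.31.

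No member probe set passed an adjusted p of 0.05 when fetal alcohol was compared with control diet (limma, Benjamini-Hochberg over 5244 probe sets), and neither did any other probe set (0.0%). The smallest adjusted p among members was 0.582. At an unadjusted p under 0.05, 8 of the 57 were lower with fetal alcohol and 0 higher, where 3.95% of all probe sets (207) were lower and 1.66% (87) higher. A negative difference was found for 49 of the 57 (86.0%), against 49.5% of all tested probe sets. By gene, taking the brightest probe set of each, 31 of 36 were below 0 with a median of -0.25, while the median over all 3174 tested genes was 0.01. The members' median was -0.30 without fetal alcohol 1 and -0.13 without fetal alcohol 2. Member probe sets of 1 gene share their RNA and members are not independent of each other, so these counts describe the 5 arrays. With 2 arrays against 2, an exact permutation test of a single value cannot go below p = 0.333.

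**Figure D1:**
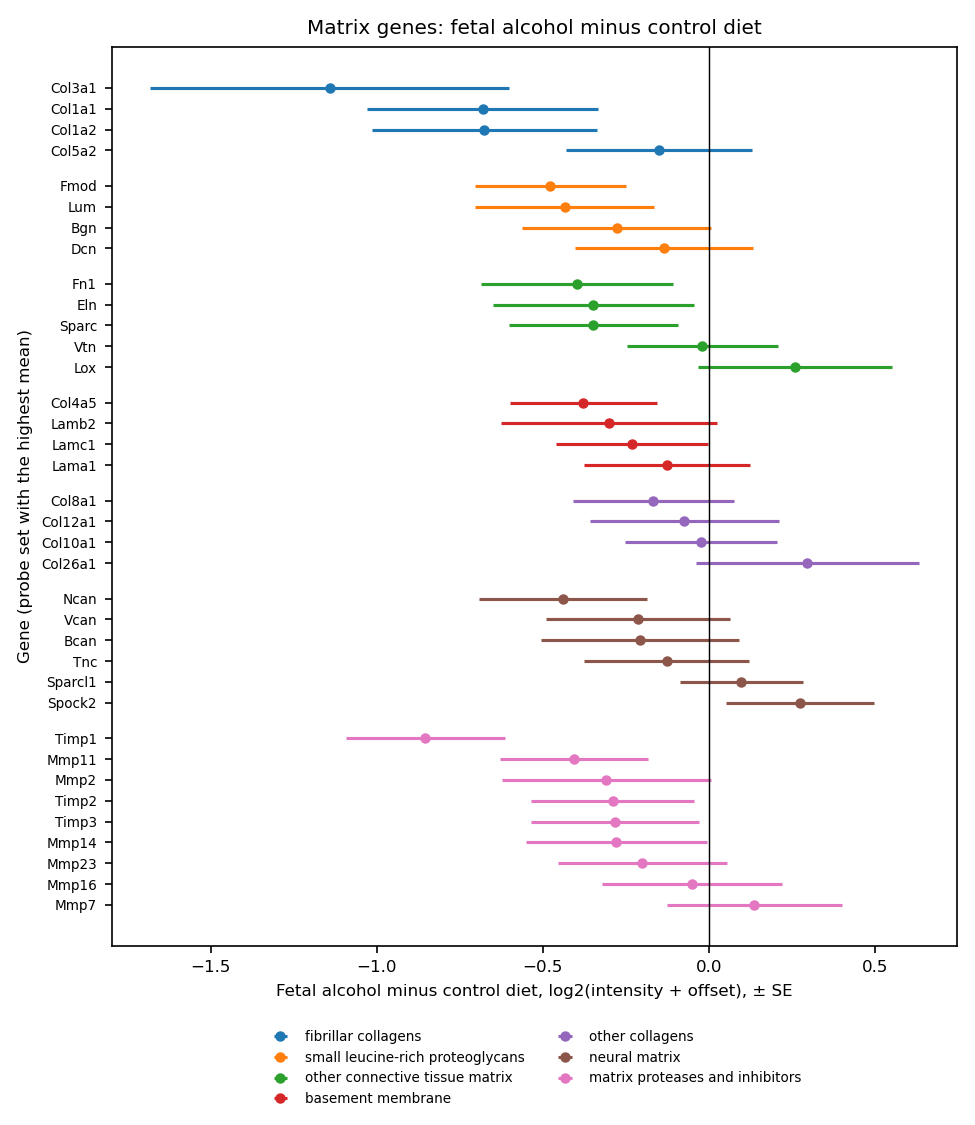
Difference between the fetal alcohol and control diet arrays for the 36 tested matrix genes, as the log2(intensity + offset) difference on the x axis with bars of ± 1 SE, by gene on the y axis and coloured by group. Points of 31 genes lie left of 0, from -1.14 (Col3a1) upwards, and Lox, Col26a1, Sparcl1, Spock2 and Mmp7 lie right of it.

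The 2 fetal alcohol arrays contributed unequally. Fetal alcohol 2 lay below both control diet arrays for 38 of the 57 member probe sets (34.8% of all tested) and fetal alcohol 1 for 29 (40.2%). Both lay below both controls for 17 members (17.7% of all tested), and both above for 3 (16.8%). With the group means also at least 1.5-fold apart on the offset scale, 9 members were lower (3.91%). In 7 members both fetal alcohol arrays lay below the controls and the isocaloric array (8.3% of all tested). Leaving out 1 array at a time turned the sign of the difference for many of the 36 tested genes. These were Col5a2, Bgn, Dcn, Eln, Lox, Vtn, Lama1, Lamb2, Col8a1, Col10a1, Col12a1 and Col26a1. The others were Bcan, Tnc, Vcan, Mmp2, Mmp7, Mmp14, Mmp16 and Mmp23.

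Among fibrillar collagens, the 8 tested probe sets of Col1a1, Col1a2, Col3a1 and Col5a2 all had their lowest value on fetal alcohol 2 (18.2% of all tested probe sets did), while fetal alcohol 1 lay near the controls. The gene-level median difference was -0.68, the lowest of the 7 matrix groups, and no probe set passed the test. In bulk samples, fewer cells of a type and less RNA per cell cannot be told apart.

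Col1a1 encodes the alpha 1 chain of type I collagen, the main fibril former of connective tissue. Its brightest probe set, M27207mRNA_s_at, read 886 and 1307 with control diet, 944 and 470.3 with fetal alcohol and 600.0 with isocaloric diet. Control diet 2 was highest and fetal alcohol 2 lowest, and fetal alcohol 1 lay between the 2 controls, so the groups overlapped. The difference was -0.68 ± 0.35 (SE), with an adjusted p of 0.911 (limma). A second Col1a1 probe set, rc_AI231472_s_at, read 345 and 505 (control diet), 328 and 99.7 (fetal alcohol) and 228 (isocaloric), a difference of -1.15 ± 0.47 (limma adjusted p = 0.872). Here both fetal alcohol arrays lay below the controls, fetal alcohol 1 by a small margin. The pair Z78279_at and Z78279_g_at gave -0.77 and -0.59, with fetal alcohol 2 at 123 and 124 and fetal alcohol 1 at 325 and 352.

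Col1a2, the partner chain of type I collagen whose promoter is shown above, read 290.0 and 436 with control diet, 298 and 159 with fetal alcohol and 352 with isocaloric diet. Fetal alcohol 1 lay just above control diet 1 and fetal alcohol 2 lay below the other 4 arrays. The difference was -0.68 ± 0.34, with a limma adjusted p of 0.911.

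Col3a1 forms type III collagen, which is laid down with type I in vessel walls and soft connective tissue. Its brighter probe set, X70369_s_at, read 289.6 and 408 with control diet, 304 and 71.3 with fetal alcohol and 199 with isocaloric diet. The fetal alcohol 2 value stood far below every other array and fetal alcohol 1 lay between the controls. The difference of -1.14 ± 0.54 (limma adjusted p = 0.909) was the most negative of the 36 genes. The second probe set, M21354_s_at, read 228 and 321 (control diet), 235 and 161 (fetal alcohol) and 174 (isocaloric) and gave -0.46 ± 0.28. Col5a2, a chain of type V collagen that helps set fibril width, read 108 and 139 (control diet), 138 and 85.8 (fetal alcohol) and 143 (isocaloric). Its groups overlapped and its difference of -0.15 ± 0.28 was smaller than its SE.

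These probe sets shared an order of arrays beyond the fetal alcohol group. In all 8, control diet 2 was above control diet 1 (48.5% of all tested) and fetal alcohol 2 below fetal alcohol 1 (47.3%). In 7 of 8, control diet 2 was the highest of the 5 (16.2%). Fetal alcohol 1 lay below both controls in 2 of the 8. Array medians of the group, in log2 relative to the control mean, were -0.26 and 0.26 (control diet), -0.18 and -1.14 (fetal alcohol) and -0.39 (isocaloric). With each gene centred instead on its mean over the 5 arrays, array medians had an SD within groups of 0.58.

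The result rests on fetal alcohol 2. Without fetal alcohol 1, 3 member probe sets passed the threshold (0.324% of all tested, 17, did in that fit), all fibrillar: Col3a1 X70369_s_at at -2.12 ± 0.27 (limma adjusted p = 0.0228), Col1a1 rc_AI231472_s_at at -1.96 ± 0.28 (0.0283) and Col1a1 Z78279_at at -1.44 ± 0.23 (0.0483). In that fit the spread came from the 2 control diet arrays alone, and a lone fetal alcohol array is assumed to vary like them. Without fetal alcohol 2 the same 3 gave -0.17, -0.34 and -0.11. Over all alternatives their adjusted p ran from 0.0228, 0.0283 and 0.0483 to 1.000.

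**Figure D2:**
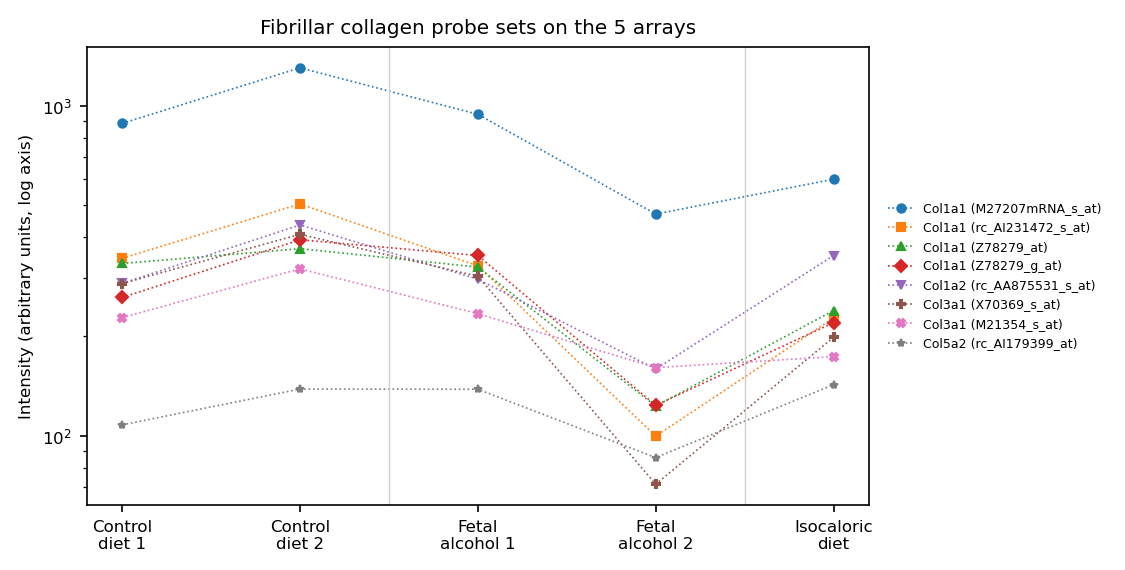
Intensity in arbitrary units (log axis) of the 8 tested fibrillar collagen probe sets on the 5 arrays, 1 line per probe set. Dotted lines only join values of a probe set. Fetal alcohol 2 is the lowest point of every line, and the Col3a1 probe set X70369_s_at reaches 71.3 there against 290 to 408 on the control diet arrays.

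Markers of the meninges outside the member genes were also lowest on fetal alcohol 2. Among them, Mgp (matrix Gla protein) itself encodes a matrix protein. Of 19 listed, 11 had a probe set and 10 were tested (Foxc2, a transcription factor of meningeal development, was too dim). Their summed intensity was 4285 and 6264 with control diet, 5310 and 2447 with fetal alcohol and 4098 with isocaloric diet, the same order of arrays as the brightest Col1a1 probe set. Much of this sum was Ptgds: without it the other 9 summed to 2055 and 2721 (control diet), 2223 and 1450 (fetal alcohol) and 2364 (isocaloric), with fetal alcohol 2 still lowest but the isocaloric array second highest. In 9 of the 10, fetal alcohol 2 was the lowest of 5 (585 of 3174 over all tested genes). It was below fetal alcohol 1 in all 10 (1538 of 3174). Ptgds, a prostaglandin D synthase made in the leptomeninges and other brain cells, read 2230.3 and 3542 (control diet), 3087 and 997 (fetal alcohol) and 1734 (isocaloric). Aldh1a2, the retinoic acid enzyme of the meninges, read 85.2 and 131 (control diet), 75.1 and 37.7 (fetal alcohol) and 72.5 (isocaloric). Igf2, a growth factor made by meninges and choroid plexus, read 592 and 861 (control diet), 582 and 308 (fetal alcohol) and 593 (isocaloric). Their differences of -0.68, -0.86 and -0.74 did not pass the test. The list's median was -0.44 with 9 of 10 genes below 0 (1510 of 3174 over all tested genes). Whether the share of meninges in a sample had a part in the collagen values was not tested.

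Markers of the choroid plexus had larger differences, none past the test. The summed intensity of 5 tested markers (of 13 listed, 7 with a probe set) was 5694 and 5347 with control diet, 1201 and 287 with fetal alcohol and 6076 with isocaloric diet. Ttr, the transthyretin gene that marks choroid epithelium, read 5297 and 4886 (control diet), 1004 and 69.2 (fetal alcohol) and 5391 (isocaloric). Nearly all of the sum was Ttr, and without it the other 4 summed to 397 and 461 (control diet), 198 and 218 (fetal alcohol) and 685 (isocaloric). Both fetal alcohol arrays were low for Ttr, Aqp1, Enpp2 and Sostdc1, but not for Prlr, which read 39.6 and 41.4 (control diet), 44.9 and 38.9 (fetal alcohol) and 37.0 (isocaloric). The part of choroid plexus in the results was not tested.

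Vessel markers (10 tested) summed to 1147 and 1383 (control diet), 926 and 1047 (fetal alcohol) and 1154 (isocaloric), or between 595 and 835 on the 5 arrays without Slc2a1, with a median difference of -0.26. Summed astrocyte markers (10 tested) ranged from 5689 to 6263, neuron markers (7) from 5366 to 6376, oligodendrocyte markers (6) from 607 to 691, microglia markers (4) from 347 to 646 and blood markers (3) from 5504 to 8077 over the 5 arrays. Microglia markers were highest on control diet 2 and lowest on fetal alcohol 2, and blood markers highest on fetal alcohol 1 and lowest on fetal alcohol 2.

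The small leucine-rich proteoglycans, which bind collagen fibrils, did not follow the collagens' array order. Of 8 tested probe sets for Bgn, Dcn, Fmod and Lum, 6 had their lowest value on fetal alcohol 1 (25.2% of all tested), and 1 had fetal alcohol 2 below fetal alcohol 1. The median difference over the 4 genes was -0.36 and none passed the test. Array medians were -0.11 and 0.11 (control diet), -0.48 and -0.30 (fetal alcohol) and -0.21 (isocaloric). Control diet 2 exceeded control diet 1 in all 8, as for the collagens.

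Fmod encodes fibromodulin, which binds type I collagen, and read 76.7 and 89.2 with control diet, 54.2 and 58.6 with fetal alcohol and 67.9 with isocaloric diet. Fetal alcohol was below the other 3 arrays on both of its arrays, and the difference was -0.48 ± 0.23 (limma adjusted p = 0.909). Lum encodes lumican, a regulator of fibril spacing, and read 44.8 and 49.7 with control diet, 24.8 and 41.1 with fetal alcohol and 39.4 with isocaloric diet. Its difference of -0.43 ± 0.27 (limma adjusted p = 0.949) came mainly from fetal alcohol 1, while fetal alcohol 2 lay close to control diet 1.

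Biglycan, from Bgn, gave different patterns on its 2 probe sets. The brighter one, U17834_at, read 224 and 283 (control diet), 259.6 and 163 (fetal alcohol) and 216 (isocaloric), in the same order of arrays as the brightest Col1a1 probe set, with a difference of -0.28 ± 0.29. The other, rc_AA859830_s_at, read 111 and 111 (control diet), 58.6 and 67.9 (fetal alcohol) and 60.7 (isocaloric). On it the 2 controls were nearly equal, both fetal alcohol arrays lay clearly below, and so did the isocaloric array. Its differences were -0.72 ± 0.22 for fetal alcohol and -0.77 ± 0.27 for isocaloric diet, each against the same controls, with limma adjusted p of 0.682 and 0.631.

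Decorin, from Dcn, a proteoglycan that binds collagen and growth factors, had 4 tested probe sets, whose differences ran from -0.26 to 0.11. Its brightest, Z12298cds_s_at, read 70.0 and 84.5 with control diet, 54.5 and 86.9 with fetal alcohol and 88.1 with isocaloric diet. Fetal alcohol 1 was low and fetal alcohol 2 was above both controls, so the groups overlapped, with a difference of -0.14 ± 0.27. In all 4 Dcn probe sets fetal alcohol 1 lay below fetal alcohol 2, the reverse of the fibrillar collagens.

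Of the other connective tissue glycoproteins and fibre proteins, 12 probe sets for Eln, Fn1, Lox, Sparc and Vtn were tested, and 10 had a negative difference. By gene the median was -0.35 with 4 of 5 below 0, and none passed. Without fetal alcohol 2 the median was 0.062, and without fetal alcohol 1 it was -0.18.

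Fn1 encodes fibronectin, which links cells to collagen and fibrin. Its brightest probe set, X05834_at, read 364 and 506 with control diet, 398 and 263 with fetal alcohol and 389 with isocaloric diet, with control diet 2 highest, fetal alcohol 2 lowest and a difference of -0.40 ± 0.29 (limma adjusted p = 0.965). The 5 tested Fn1 probe sets disagreed. U82612cds_g_at read 84.8 and 108 (control diet), 49.8 and 53.3 (fetal alcohol) and 51.3 (isocaloric) and gave -0.77 ± 0.24 (limma adjusted p = 0.658), with both fetal alcohol arrays and the isocaloric array well below the controls. U82612cds_at, X05831cds_at and M28259cds_at gave -0.04, -0.12 and 0.53, the last from a control diet 1 value of 14.0 near the offset.

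Sparc encodes osteonectin, a secreted collagen-binding protein made by endothelial cells and glia as well as connective tissue. The brightest of its 4 probe sets, rc_AA892248_at, read 3322 and 2119 with control diet, 1848 and 2348 with fetal alcohol and 1569 with isocaloric diet. Control diet 1 was the highest and the isocaloric array the lowest, the groups overlapped, and the difference was -0.35 ± 0.25. Y13714_at read 1415 and 899 (control diet), 739.7 and 378 (fetal alcohol) and 572 (isocaloric), with both fetal alcohol arrays below the controls and a difference of -1.08 ± 0.35 (limma adjusted p = 0.699). rc_AA891204_s_at gave -0.92 ± 0.34 with the same order of arrays as Y13714_at, and rc_AA946313_s_at gave -0.40 ± 0.29 with control diet 2 highest. All 4 were negative, but the control diet arrays themselves differed in opposite directions between them.

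Eln encodes elastin, the core of elastic fibres in vessel walls, and read 342 and 359.5 (control diet), 367 and 203 (fetal alcohol) and 266 (isocaloric). Of the fetal alcohol arrays only the second lay below the controls, and the difference was -0.35 ± 0.30. Lox, the lysyl oxidase that cross-links collagen and elastin, read 30.6 and 44.7 (control diet), 59.2 and 36.1 (fetal alcohol) and 33.2 (isocaloric) and gave 0.26 ± 0.29. Vtn encodes vitronectin, an adhesion protein of plasma and pericytes, and its difference was -0.02 ± 0.23.

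**Figure D3:**
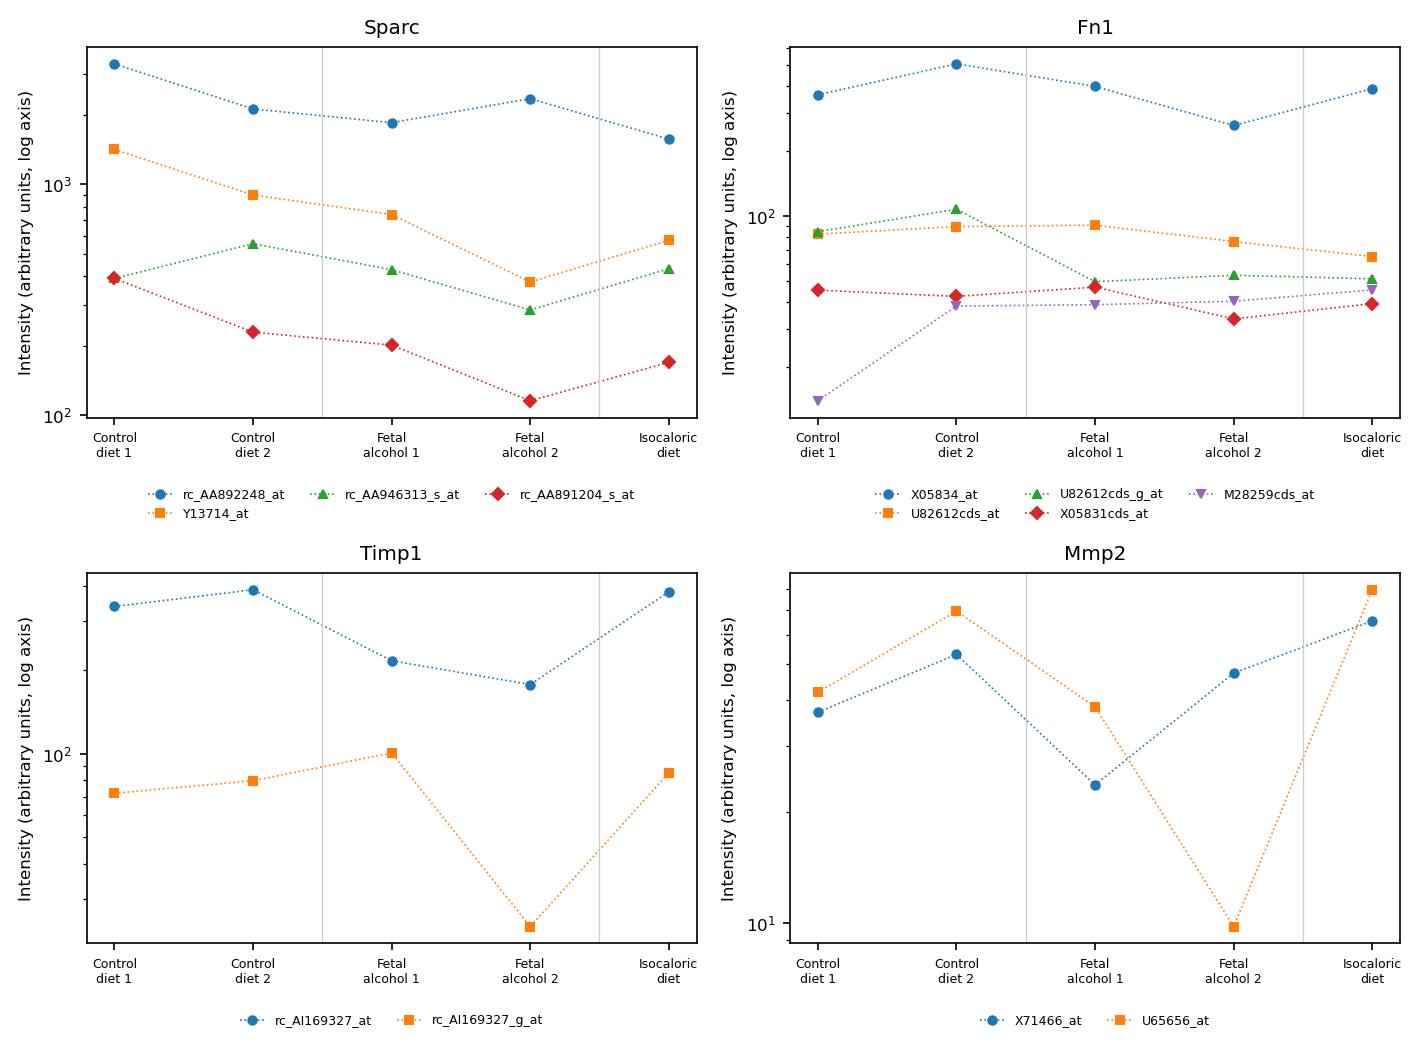
Intensity in arbitrary units (log axis) of every tested probe set of Sparc, Fn1, Timp1 and Mmp2 on the 5 arrays, with 1 panel per gene and 1 line per probe set. Dotted lines only join values of a probe set. The Fn1 and Timp1 panels show probe sets of 1 gene with different orders of arrays: fetal alcohol 1 is above both controls for the Timp1 probe set rc_AI169327_g_at and below both for rc_AI169327_at.

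Of the 11 member genes with more than 1 tested probe set (32 probe sets), 8 had only negative differences, 0 only positive, and 3 (Dcn, Fn1 and Tnc) had both signs.

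Basement membrane genes gave small differences. Of 10 genes on the array, 4 (Col4a5, Lama1, Lamb2, Lamc1) were tested, all with a negative difference and a median of -0.27, and none passed. Col4a5, a chain of the type IV collagen network, read 120.2 and 127 with control diet, 95.3 and 90.3 with fetal alcohol and 171 with isocaloric diet. Both fetal alcohol arrays lay below both controls, and the isocaloric array lay above them. The difference from control diet was -0.38 ± 0.22 (limma adjusted p = 0.946) and from isocaloric diet -0.81 ± 0.27 (limma unadjusted p = 0.0165, adjusted p = 0.998). Lamc1, the gamma chain shared by most laminins, read 273 and 267 (control diet), 243 and 215 (fetal alcohol) and 256 (isocaloric), with fetal alcohol below control on both arrays by little and a difference of -0.23 ± 0.23. Lamb2, a beta chain of vessel and synapse laminins, gave -0.30 ± 0.32 and -0.22 ± 0.23 on 2 probe sets, with fetal alcohol 2 lowest on both. Lama1, the alpha chain of pial and embryonic laminin, read 78.9 and 60.9 (control diet), 54.5 and 71.8 (fetal alcohol) and 56.0 (isocaloric) and gave -0.13 ± 0.25.

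Among the collagens outside the fibrillar and basement membrane families, the median over Col8a1, Col10a1, Col12a1 and Col26a1 was -0.05, and it was 0.092 without fetal alcohol 2 and -0.20 without fetal alcohol 1. In 0 of 4 did both fetal alcohol arrays lie on the same side of both controls. Of all tested probe sets, 17.7% had both below and 16.8% both above. Col26a1 read 105 and 137 (control diet), 214 and 104 (fetal alcohol) and 114 (isocaloric), its difference of 0.30 ± 0.34 coming from fetal alcohol 1 alone. Col8a1, a short-chain collagen of vessel walls, gave -0.17 ± 0.24. Col12a1, which decorates type I fibrils, gave -0.07 ± 0.28, with its lowest value on fetal alcohol 2. Col10a1, the collagen of growing cartilage, read between 46.0 and 49.4 on all 5 arrays.

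In the matrix of nervous tissue, Bcan and the Ncan probe set M97161_at were lowest on fetal alcohol 2, unlike most of the group. Of 9 tested probe sets for Bcan, Ncan, Sparcl1, Spock2, Tnc and Vcan, 6 had a negative and 3 a positive difference, and 2 had their lowest value on fetal alcohol 2. The median over 6 genes was -0.17 and none passed. It was 0.017 without fetal alcohol 2 and -0.046 without fetal alcohol 1, so the median of -0.17 was not kept when either array was left out. Array medians were 0.03 and -0.03 (control diet), 0.02 and -0.05 (fetal alcohol) and -0.26 (isocaloric). The SD within groups of array medians, centred as for the fibrillar collagens, was 0.04 against their 0.58. It is not the spread of single genes, whose opposite moves offset each other in a median. Relative to the control mean, Bcan was at 0.17 and -0.58 on fetal alcohol 1 and 2, and Vcan at -0.55 and 0.13. Control diet 2 exceeded control diet 1 in 2 of 9 probe sets, against 8 of 8 fibrillar ones. The difference between the groups of genes was not tested.

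Ncan encodes neurocan, a lectican of developing brain made by neurons and astrocytes. Its brighter probe set, M97161_at, read 331 and 249 with control diet, 229 and 190.4 with fetal alcohol and 217 with isocaloric diet. Both fetal alcohol arrays lay below both controls, as did the isocaloric array, and the difference was -0.44 ± 0.25 (limma adjusted p = 0.946). The second, AF060879_s_at, read 246 and 209 with control diet, 110.4 and 135 with fetal alcohol and 107 with isocaloric diet. Again all 3 arrays outside the control diet lay below both controls. The difference was -0.84 ± 0.24 for fetal alcohol (limma adjusted p = 0.582) and -1.01 ± 0.29 for isocaloric diet (adjusted p = 0.555), both against the same controls. Without fetal alcohol 1 or 2 the first of these was -0.70 or -0.97, so neither array alone gave it.

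Bcan encodes brevican, a lectican bound to perineuronal surfaces, and read 553 and 726 with control diet, 713 and 420.4 with fetal alcohol and 500.1 with isocaloric diet. The groups overlapped, the order of arrays was that of the brightest Col1a1 probe set, and the difference was -0.21 ± 0.30. Vcan encodes versican, which is also made by meningeal and vascular cells, and read 77.9 and 84.3 (control diet), 51.9 and 89.5 (fetal alcohol) and 69.7 (isocaloric). Its low value was on fetal alcohol 1 and the difference was -0.21 ± 0.28.

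Tnc encodes tenascin-C, a glycoprotein of radial glia and immature astrocytes. Its brightest probe set, U09361_s_at, read 229 and 166 (control diet), 182 and 174 (fetal alcohol) and 152 (isocaloric), with both fetal alcohol values inside the range of the controls and a difference of -0.13 ± 0.25. The other probe sets gave 0.11 and -0.21, so the sign was not shared.

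Both SPARC family members of neural tissue had positive differences, neither past the test. Sparcl1 encodes hevin, a synapse-organizing protein of astrocytes, and read 1747 and 1676 (control diet), 1872 and 1793 (fetal alcohol) and 2169 (isocaloric). The fetal alcohol arrays lay slightly above both controls and the isocaloric array was highest, with a difference of 0.10 ± 0.19 for fetal alcohol. Spock2 encodes testican-2, a neural proteoglycan, and read 1084 and 1052 (control diet), 1494 and 1120.2 (fetal alcohol) and 1036 (isocaloric). It was the most positive of the neural matrix genes at 0.27 ± 0.22 (limma adjusted p = 0.965), and most of that came from fetal alcohol 1.

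**Figure D4:**
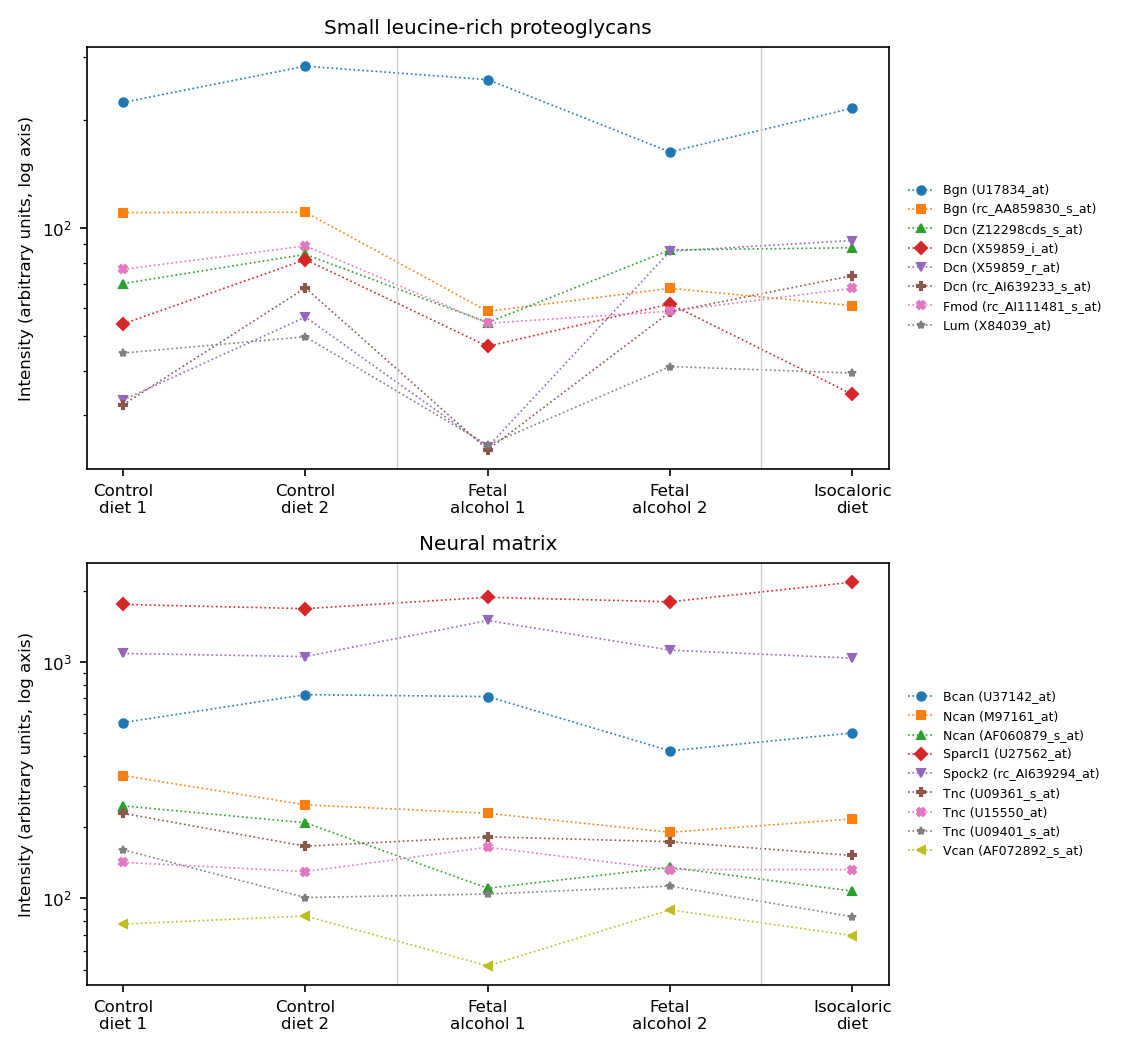
Intensity in arbitrary units (log axis) of the tested small leucine-rich proteoglycan (top) and neural matrix (bottom) probe sets on the 5 arrays, 1 line per probe set. Dotted lines only join values of a probe set. In the top panel 6 of 8 lines have their lowest point on fetal alcohol 1, and in the bottom panel the Ncan probe set AF060879_s_at is at 246 and 209 on the control diet arrays and between 107 and 135 on the other 3.

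**Figure D5:**
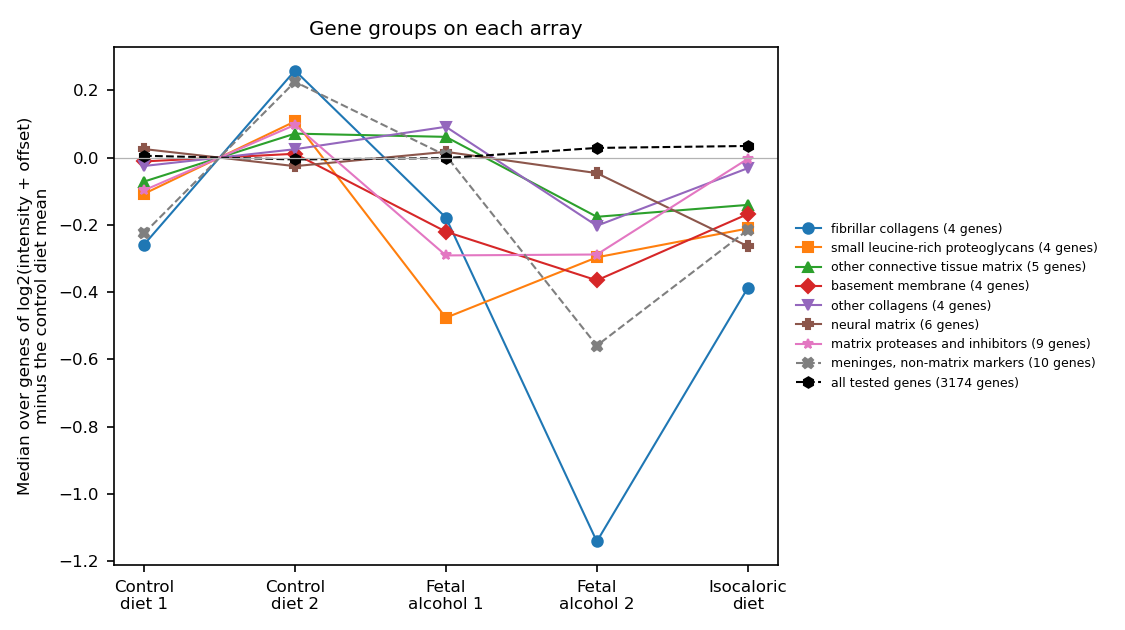
Median over genes of log2(intensity + offset) minus the control diet mean (y axis) on each of the 5 arrays (x axis). Shown are the 7 matrix groups, all tested genes and the meningeal markers outside the member genes, named non-matrix in the legend. Lines only join values of a group. Fibrillar collagens reach -1.14 and meningeal markers -0.56 on fetal alcohol 2, where neural matrix is at -0.05 and all tested genes at 0.03.

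Matrix proteases and their inhibitors had a median difference of -0.28, with 8 of 9 genes below 0 and none past the test. Timp1, an inhibitor of metalloproteinases that also acts as a cytokine, had the smallest p of the members. Its probe set rc_AI169327_at read 338 and 388 with control diet, 216 and 177 with fetal alcohol and 381 with isocaloric diet. Both fetal alcohol arrays lay far below the controls and the isocaloric array, which lay between the 2 controls. The difference was -0.85 ± 0.24 against control diet (limma unadjusted p = 0.00682, adjusted p = 0.582) and -0.93 ± 0.29 against isocaloric diet (limma adjusted p = 0.998). Without fetal alcohol 1 or 2 the first was -0.99 or -0.72. The companion probe set rc_AI169327_g_at read 72.0 and 79.8 (control diet), 101 and 23.9 (fetal alcohol) and 85.2 (isocaloric), with fetal alcohol 1 above both controls and a difference of -0.48 ± 0.47, so the 2 Timp1 probe sets agreed on fetal alcohol 2 alone.

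Timp2, which both inhibits Mmp2 and helps activate it, read 429.5 and 586 (control diet), 408 and 409 (fetal alcohol) and 526 (isocaloric). The fetal alcohol values were nearly equal and below both controls, and the difference was -0.29 ± 0.25. Timp3, an inhibitor bound to the matrix itself, read 54.2 and 77.9 (control diet), 47.7 and 55.8 (fetal alcohol) and 52.8 (isocaloric) and gave -0.28 ± 0.25, with fetal alcohol 2 just above control diet 1.

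Mmp2 encodes gelatinase A, which cuts type IV collagen. Its brighter probe set, X71466_at, read 37.1 and 53.1 (control diet), 23.6 and 47.3 (fetal alcohol) and 65.5 (isocaloric), with fetal alcohol 1 low and a difference of -0.31 ± 0.31. On U65656_at, which read 42.0 and 69.6 (control diet), 38.4 and 9.77 (fetal alcohol) and 79.5 (isocaloric), fetal alcohol 2 was low, and the difference was -1.04 ± 0.42 (limma adjusted p = 0.820). The 9.77 on fetal alcohol 2 was below the offset, and the 2 probe sets placed the low value on different arrays.

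Mmp11, or stromelysin-3, whose promoter is shown above, read 75.2 and 80.8 (control diet), 58.0 and 54.6 (fetal alcohol) and 68.8 (isocaloric). The 2 fetal alcohol values were the lowest of the 5, and the difference was -0.41 ± 0.22 (limma adjusted p = 0.922). Mmp14, the membrane protease that activates Mmp2, read 338 and 374 (control diet), 363 and 233 (fetal alcohol) and 341 (isocaloric), low on fetal alcohol 2 only, and gave -0.28 ± 0.27. Mmp16, Mmp23 and Mmp7 gave -0.05, -0.20 and 0.14.

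Filtering removed 26 member probe sets, which left 19 genes untested. They were Col2a1, Col5a1 and Col11a1 of the fibrillar collagens, Postn, 6 basement membrane genes (Col4a3, Col15a1, Lama2, Lama3, Lama5, Nid1), Col9a1, the neural genes Acan and Tnr, and 6 proteases (Mmp3, Mmp8, Mmp9, Mmp10, Mmp12, Mmp13). Their intensities ran from 1.92 to 49.8. Acan (aggrecan) and Tnr (tenascin-R), matrix genes of mature perineuronal nets, lay between 3.88 and 11.8 on all arrays. No detection calls were used here, so at such levels a low level and background cannot be told apart and no difference is reported.

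The isocaloric array was compared as a single sample, assumed to vary like the others. Against the control diet, 41 of 57 members had a negative difference (48.6% of all tested), 5 at an unadjusted p under 0.05 (5.43% of all tested were lower), and none passed (0.0%, smallest adjusted p 0.555, limma). The isocaloric array lay below both controls and at least 1.5-fold below their mean in 12 members (8.39% of all tested), and above both by the same rule in 2 (4.02%). The 5 were probe sets of Bgn, Dcn, Fn1, Sparc and Ncan. For Dcn the other 3 tested probe sets had positive differences of 0.17, 0.54 and 0.93. Gene medians were -0.39 for fibrillar collagens and -0.26 for neural matrix, against 0.03 for all tested genes. For Col1a1 the brightest probe set gave -0.83 ± 0.43, for Col3a1 -0.76 ± 0.66, for Sparc -0.75 ± 0.31 and for Sparcl1 0.34 ± 0.23. The comparisons of fetal alcohol and of isocaloric diet share the control arrays, so their values are not independent. For the 5 probe sets named above the fetal alcohol differences are -0.72 (Bgn), -0.26 (Dcn), -0.77 (Fn1), -0.35 (Sparc) and -0.84 (Ncan).

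Fetal alcohol compared with the isocaloric array gave fewer low members. Negative differences were found in 36 of 57 (50.3% of all tested), 3 at an unadjusted p under 0.05 (1.54% were lower), and none passed (0.0%, smallest adjusted p 0.998, limma). Both fetal alcohol arrays lay below the isocaloric array with means at least 1.5-fold apart in 7 members (3.83%) and above in 0 (5.03%). The 3 were probe sets of Timp1, Col4a5 and Mmp2. The median over genes was -0.37 for fibrillar collagens, -0.08 for all members and 0.05 for neural matrix. The median for fibrillar collagens was -0.88 without fetal alcohol 1 and 0.27 without fetal alcohol 2.

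Genes that make and hold the matrix were counted beside its components. Of 20 genes of collagen processing and matrix assembly, 11 had a probe set and 10 were tested. None passed in either direction, 7 of 10 were below 0 (1510 of all 3174 tested genes were) and the median was -0.06. By array the median was 0.036 on fetal alcohol 1 and -0.29 on fetal alcohol 2, relative to the control mean. Fetal alcohol 2 was below fetal alcohol 1 in 9 of 10 (1538 of 3174 over all genes) and below both controls in 7 (1081 of 3174). Ctsk, a collagen-cutting cathepsin, read 38.2 and 62.2 (control diet), 49.4 and 16.6 (fetal alcohol) and 57.1 (isocaloric), with fetal alcohol 2 alone below the controls and a difference of -0.56 ± 0.39. Pcolce, which enhances procollagen cleavage, read 123 and 141 (control diet), 115 and 84.9 (fetal alcohol) and 83.0 (isocaloric) and gave -0.38 ± 0.24. Both fetal alcohol arrays and the isocaloric array lay below both controls, fetal alcohol 1 by the least. Plod1, a collagen lysyl hydroxylase, gave -0.35 ± 0.28.

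Of 30 integrins, syndecans, glypicans and other matrix receptors, 20 had a probe set and 17 were tested. None passed, 10 of 17 were below 0 and the median was -0.01, close to that of all genes. Sdc3, a syndecan of developing neurons, read 355 and 505 with control diet, 246 and 269.6 with fetal alcohol and 278 with isocaloric diet. All 3 arrays outside the control diet lay below both controls, and the difference was -0.69 ± 0.26 (limma adjusted p = 0.788). Gpc3, a glypican that binds growth factors, gave -0.57 ± 0.27, and Itgb3, an integrin subunit for vitronectin and fibronectin, gave -0.56 ± 0.38, the latter from a high control diet 1.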

How the data were processed

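The authors deposited 1 linear intensity for each probe set of an array. The software and scaling were not given in the sources used here. Deposited values had 2% trimmed means that differed between arrays by a ratio of 1.0002, so they were used as deposited. Of 8799 probe sets, 59 controls were left out, and 7006 of the other 8740 had a single symbol in the platform annotation, 308 several and 1426 none. The log2(intensity + 10.605) values, with the 20th percentile as offset, were fitted with limma 3.58.1 in R 4.3.3 (lmFit, eBayes with an intensity trend), all 5 arrays in 1 fit, with Benjamini-Hochberg adjustment over 5244 probe sets at or above the 40th percentile of mean log2 value. The spread rested on 2 residual degrees of freedom, with 6.30 from the prior, and the number of arrays limits precision. The fit was tested on simulated data. The brightest probe set stood for a gene in medians.

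Members, gene lists and groups were chosen with earlier results of these data known, so no list was tested. Genes were named by size: in each group those with the largest differences in either direction with all arrays and their other probe sets. Labels' replicate numbers 1 and 2 have no stated meaning, and same-numbered arrays did not deviate together (correlation -0.11), so no pairing was used. Alternatives covered scaling, offset, filter, variance prior, block, samples and the probe set used for a gene. Promoters were matched by symbol.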

Additional observations from a re-analysis of the deposited data

How the results depend on the processing

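Over 14 alternatives, 523 of 552 values of single genes kept their direction and their side of the threshold, 28 changed sign and 1 passed it. No member passed with fetal alcohol against control diet except without fetal alcohol 1 (0 to 3 over the 4 arrays left out; at an unadjusted p under 0.05, 4 to 22 members were lower). Counts of all probe sets past the threshold in that comparison, 0 as reported, were 9 with equal medians, 1 with an offset at the 40th percentile, 1 with quantile normalization, 8 with the replicate block and 0 to 25 leaving out 1 array; the replicate block called 0 members. Against isocaloric diet they were 3 with equal medians, 3 with quantile normalization and 0 to 12 leaving out 1 array, and for isocaloric against control diet 0 to 13. The cause was not tested. For the fits leaving out 1 array, the share of all tested probe sets lower at an unadjusted p under 0.05 is not given here. The members' counts at that p in these fits therefore cannot be set against all tested probe sets, and no conclusion about the members is drawn from them.

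Medians moved as follows. For fetal alcohol minus control diet, other connective tissue matrix gave -0.16 with the mean of all probe sets, -0.18 without a filter and -0.18 to 0.062 leaving out 1 array. All members gave -0.31 to -0.13 leaving out 1 array. Other collagens gave 0.065 with a filter at the 60th percentile and -0.20 to 0.092 leaving out 1 array. Basement membrane gave -0.12 without a filter and -0.37 to -0.22 leaving out 1 array. Neural matrix gave -0.12 with equal medians, -0.13 with a filter at the 60th percentile, -0.13 without a filter and -0.089 to 0.017 leaving out 1 array. Proteases and inhibitors gave -0.45 to -0.10 leaving out 1 array. Against isocaloric diet, neural matrix gave 0.094 with the mean of all probe sets, 0.13 with the 60th percentile filter, 0.00022 without a filter and -0.033 to 0.16 leaving out 1 array, fibrillar collagens -0.88 to 0.27 and all members -0.21 to -0.037. For isocaloric against control diet, neural matrix gave -0.21 with equal medians, -0.34 with the 60th percentile filter, -0.15 without a filter and -0.26 to -0.14 leaving out 1 array.

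Signs changed for Vtn and Col10a1 with equal medians (0.021 and 0.012) and quantile normalization (0.0039 and 0.0099). Leaving out 1 array in turn changed the sign in these genes, with ranges of -0.46 to 0.16 (Col5a2), -0.60 to 0.041 (Bgn), -0.43 to 0.16 (Dcn), -0.76 to 0.062 (Eln), -0.031 to 0.55 (Lox), -0.12 to 0.081 (Vtn), -0.30 to 0.042 (Lama1), -0.76 to 0.16 (Lamb2), -0.066 to 0.018 (Col10a1), -0.40 to 0.25 (Col12a1), -0.19 to 0.78 (Col26a1), -0.37 to 0.033 (Col8a1), -0.58 to 0.17 (Bcan), -0.35 to 0.092 (Tnc), -0.55 to 0.13 (Vcan), -0.59 to 0.030 (Mmp14), -0.29 to 0.19 (Mmp16), -0.69 to 0.071 (Mmp2), -0.40 to 0.0022 (Mmp23) and -0.11 to 0.38 (Mmp7).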
